A study of Homo sapiens with 3 samples.

Results

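The OVGP1-positive treated cells are the cells of the RAC1i and Combo libraries that held at least 1 unique molecular identifier (UMI, a tag that marks 1 captured mRNA molecule) of OVGP1. They were drawn from the kept cells, which had over 1000 genes detected, at most 20% of their UMIs from mitochondrial genes and a ratio of log10 genes to log10 UMIs over 0.8. The rule found 3353 cells among 18454 kept treated cells, and among 25985 kept cells in the whole series. The RAC1i library held 1989 of them in 10215 cells and the Combo library 1364 in 8239. Each OVGP1-positive cell was set against the cells of its own library that held no OVGP1 UMI and lay in the same 5000-UMI bin, so that all other genes could be compared at like UMI totals.

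The study used droplet single-cell RNA-seq to ask how subpopulations of OVCAR3, a line established from high-grade serous ovarian carcinoma, responded to inhibition of RAC1 and EZH2. The 3 libraries described here came from cells treated for 48 h with the vehicle DMSO, with the RAC1 inhibitor NSC23766 at 50 μM (RAC1i), or with the same dose of NSC23766 plus the EZH2 inhibitor GSK126 at 5 μM (Combo). There was 1 library per condition and all cells were of 1 line, so cells of a library are not replicates and no difference between cells or libraries was tested. All intervals are 95% intervals that cover counting error only.

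OVGP1 encodes oviductal glycoprotein, a secreted, heavily glycosylated member of the chitinase-like family that has lost chitinase activity. In the fallopian tube it is made by secretory epithelial cells under estrogen control, and it coats the egg and early embryo. Because the fallopian tube secretory cell is regarded as a source of high-grade serous cancer, OVGP1 serves there as a marker of secretory differentiation, beside PAX8, the transcription factor that marks secretory cells and most serous tumours.

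The libraries held 7531 kept DMSO cells, 10215 RAC1i cells and 8239 Combo cells, with medians of 26750, 20989 and 24953 UMIs per cell. The kept cells were 74.8% to 86.8% of the barcodes of each library. Between 15 and 23 kept barcodes were shared by each pair of libraries, and the RAC1i and Combo libraries shared 21, of which 4 were OVGP1-positive in RAC1i and 4 in Combo.

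OVGP1 (ENSG00000085465) lies on the minus strand at chr1:111414319-111427735 of GRCh38, a protein-coding gene of 11 exons. Its level was 0.141 UMIs per 1e6 UMIs (CPM; exact Poisson interval 0.0935 to 0.203) in DMSO, 10.6 CPM (10.2 to 11.04) in RAC1i and 7.74 CPM (7.37 to 8.12) in Combo. The RAC1i level was 75.5 times (52.1 to 114) and the Combo level 55.0 times (37.9 to 83.1) that of DMSO. The Combo level was 0.729 times (0.685 to 0.776) that of RAC1i. In DMSO 28 of 7531 cells held an OVGP1 UMI, each of them exactly 1, a share of 0.372% (exact Clopper-Pearson interval 0.247% to 0.537%). The share was 19.5% (18.7% to 20.3%) in RAC1i and 16.6% (15.8% to 17.4%) in Combo. These values chose the members and are given as a description. The DMSO positives were too few to be contrasted with other DMSO cells.

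Most members sat just inside the rule. In RAC1i 1586 cells held 1 OVGP1 UMI, 322 held 2, 62 held 3, 17 held 4 and 2 held 5, while 8226 cells just outside the rule held none. In Combo 1135 cells held 1 UMI, 186 held 2, 36 held 3, 4 held 4, 2 held 5 and 1 held 6, and 6875 held none. If every cell of a library had carried OVGP1 at one common level, the depths of the cells would have given 2120 positive cells in RAC1i and 1440 in Combo, above the 1989 and 1364 found. Under the same assumption 327 RAC1i cells and 186 Combo cells would have held 2 or more UMIs, below the 403 and 229 found. At this depth a cell that lacked OVGP1 cannot be told apart from one in which the transcript was missed, so the contrasts below set cells richer in OVGP1 against cells poorer in it.

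Being positive depended on depth. The median UMI count of OVGP1-positive cells was 28386 in RAC1i and 31683.5 in Combo, against 19068.5 and 23178 in OVGP1-negative cells. In RAC1i the positive share climbed from 4.63% of cells under 5000 UMIs to 20.6% at 20000 to 25000 UMIs and 42.6% at 55000 to 60000. In Combo it went from 6.10% to 14.3% and 25% in the same bins. The level did not climb with depth: it was 14.6 CPM in the shallowest RAC1i bin and 10.0 CPM at 55000 to 60000 UMIs, and 18.4 and 5.72 CPM in Combo. When each cell was thinned to 5000 UMIs, the positive share was 5.07% (4.63% to 5.53%) in RAC1i, 4.11% (3.66% to 4.59%) in Combo and 0.0297% (0.0036% to 0.107%) in DMSO. Thinning left out 1015, 885 and 806 shallower cells.

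**Figure D1:**
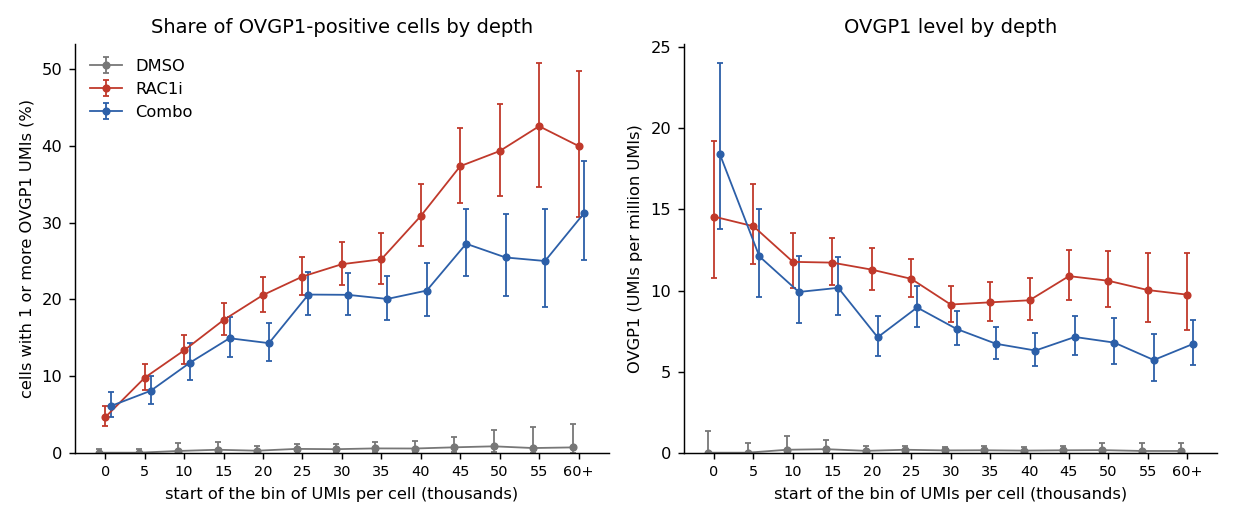
Share of OVGP1-positive cells (left, percent) and OVGP1 level (right, UMIs per 1e6 UMIs) against UMIs per cell in bins of 5000, with exact 95% intervals as bars, for the 3 libraries. The RAC1i and Combo shares climbed with depth, to 42.6% and 25% at 55000 to 60000 UMIs, while the DMSO line stayed below 1% in every bin.

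After matching, 1987 RAC1i and 1362 Combo members remained, and 2 in each library lay in bins with fewer than 10 cells of one kind. Matched RAC1i positives and negatives averaged 29829 and 29773 UMIs, and those of Combo 32034 and 32049. Positive cells showed slightly fewer genes per cell, 4868 against 4923 in RAC1i and 4992 against 5047 in Combo. Their mean mitochondrial share was lower, 1.70% against 2.02% in RAC1i and 1.83% against 2.03% in Combo.

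Summed markers of other cell types were low in the members. None of the 12 ciliated-cell markers reached 20 CPM, and their summed level was 12.2 CPM in RAC1i positives and 12.6 CPM in matched negatives, with 13.04 and 14.5 CPM in Combo and 34.05 CPM in DMSO. FOXJ1, the factor that drives ciliogenesis, had a UMI in 0.654% of RAC1i positives and 0.444% of matched negatives, and in 0.661% and 0.746% in Combo. The 14 non-epithelial markers summed to 17.3 CPM in RAC1i positives and 14.6 CPM in negatives, to 17.5 and 14.1 CPM in Combo and to 8.42 CPM in DMSO. The part of these markers in the differences between the pools was not tested. PTPRC, the pan-leukocyte marker CD45, was seen in 3 of 1987 RAC1i positives and 0.00489% of matched negatives, and in 0 of 1362 Combo positives and no matched negative. COL1A1, a collagen of fibroblasts, had a UMI in 14.6% of RAC1i positives and 13.5% of matched negatives, in 16.2% and 14.4% in Combo, and in 12.6% of DMSO cells. The fallopian secretory markers were present but are described below as lower in the members than in the other treated cells. The label as OVGP1-positive cells therefore rests on OVGP1 alone, and they are not called secretory cells here.

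Genes were compared as the ratio of CPM in OVGP1-positive cells over matched negative cells. Genes that reached 20 CPM in either pool were compared, and were called higher where the positive pool exceeded the negative pool by 25% or more and lower where it fell short by 20% or more. In RAC1i 288 of 5428 genes (5.31%) were called higher and 517 (9.52%) lower. In Combo 335 of 5456 genes (6.14%) were higher and 550 (10.1%) lower. Of these calls, 44 higher and 145 lower in RAC1i and 54 and 136 in Combo reached 20 CPM only in the pool where they were high, so the limit itself favoured a difference. Among genes at 20 CPM or more in both pools 4.88% were higher and 7.43% lower in RAC1i, and 5.56% and 8.19% in Combo. The median log2 ratio over all tested genes was -0.04 in RAC1i and -0.03 in Combo. Higher genes were 35.8% of the calls in RAC1i and 37.9% in Combo. Scaling the pools by TMM, which moved all log2 ratios up by 0.04 and 0.05, turned this balance to 424 higher and 381 lower in RAC1i (52.7% higher) and to 497 and 367 in Combo (57.5%).

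The RAC1i and Combo libraries share no cells, so each contrast could be read in a culture the other did not use. Of the genes called higher, 230 were called in both libraries, 79.9% of the RAC1i calls and 68.7% of the Combo calls. Of the genes called lower, 390 were shared, 75.4% and 70.9%. All 269 higher and 502 lower RAC1i calls that were also tested in Combo lay on the same side there, and 0 genes were called in opposite directions. Over 5290 genes tested in both, the log2 ratios had a Pearson r of 0.955, given as a description, since genes are not independent and both contrasts rest on the same choice of gene.

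**Figure D2:**
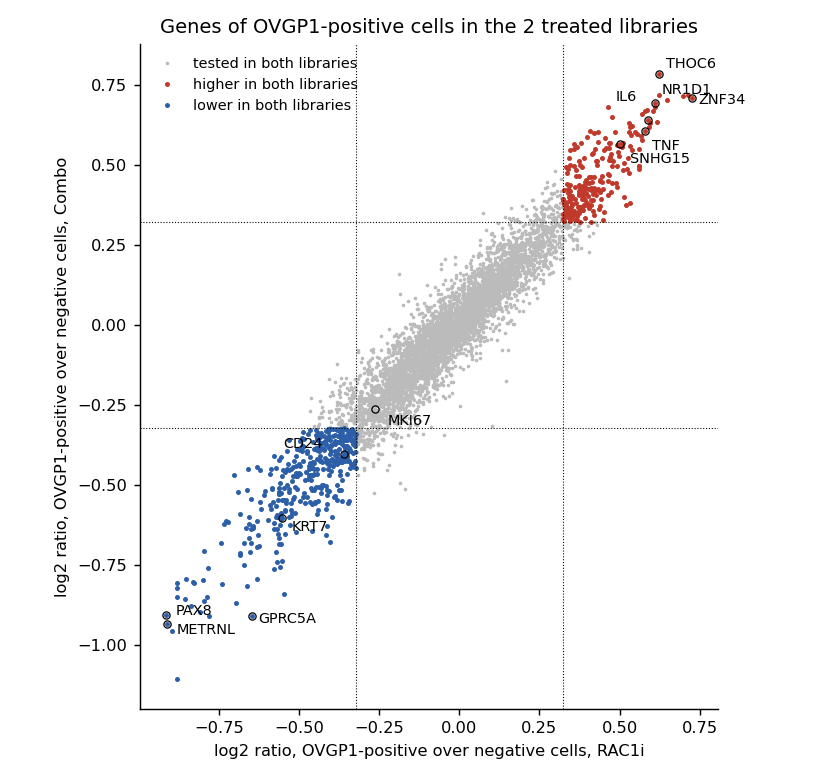
Log2 ratio of CPM in OVGP1-positive over depth-matched OVGP1-negative cells for each gene tested in both libraries, RAC1i on the x axis and Combo on the y axis, with dotted lines at 0.32 on either side of 0. The 230 genes called higher in both (red) and the 390 called lower in both (blue) lie along 1 diagonal, with PAX8 and METRNL at the low end and ZNF34, NR1D1 and THOC6 at the high end.

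These calls went with a score of how far a cell stood from the DMSO state, which is described at the end and whose low side is mostly mitochondrial RNA. When cells were also matched on that score, 4 genes were called higher and 12 lower in RAC1i, and 5 and 4 in Combo. With mitochondrial and named genes left out of the score, the counts were 13 and 12 in RAC1i and 9 and 4 in Combo. Matching on the mitochondrial share in 4 classes left 131 and 215 calls in RAC1i and 172 and 287 in Combo. The ratios that follow are those matched on depth alone.

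The lowest ratio in RAC1i belonged to PAX8. It stood at 355 CPM in DMSO, 65.4 CPM in RAC1i negatives and 34.7 CPM in RAC1i positives, a ratio of 0.530 (0.505 to 0.556). In Combo it went from 54.4 CPM in negatives to 29.1 CPM in positives, a ratio of 0.534 (0.503 to 0.567). So the cells that carried OVGP1 were on average the poorer in PAX8 in both libraries, and the pooled level of either kind of treated cell was below that of DMSO. A PAX8 UMI was found in 41.9% (39.7% to 44.1%) of RAC1i positives and 54.2% of matched negatives, and in 42.1% and 51.4% in Combo. In DMSO 90.6% of cells held one. After thinning to 5000 UMIs the shares were 13.7% and 19.9% in RAC1i, 12.3% and 18.6% in Combo and 77.4% in DMSO.

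Other markers of the secretory and serous lineage lay on the low side as well. Of the 20 measured members of that list in RAC1i, 9 were called lower, 0 higher and 19 had a ratio below 1, with a median log2 ratio of -0.18. In Combo 8 of 19 were lower and 0 higher, with a median of -0.25. Of all tested genes 9.52% and 10.1% were called lower. KRT7, a keratin of simple epithelium, stood at 1226 CPM in DMSO, 518 CPM in RAC1i negatives and 353 CPM in positives, a ratio of 0.681 (0.671 to 0.692), and at 643 and 423 CPM in Combo (0.658, 0.648 to 0.669). CDH6, a cadherin of Müllerian and renal epithelium, stood at 572 CPM in DMSO, 25.9 CPM in RAC1i negatives and 15.9 CPM in positives (0.615, 0.572 to 0.660). It reached 20 CPM only in the negative pool in RAC1i and was not tested in Combo, so the limit itself favoured its call. The counts of lower genes given above carry the same limit. MUC16, the CA125 antigen, had log2 ratios of -0.32 in RAC1i and -0.34 in Combo, MUC1 -0.42 in both, and EMX2, a homeobox gene of the reproductive tract, -0.39 and -0.44. MSLN, the mesothelin antigen, was the highest member and was not called, at 34.2 and 35.0 CPM in RAC1i and 37.7 and 39.0 CPM in Combo. WFDC2, the HE4 antigen, had a log2 ratio of -0.10 in both.

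The other genes at the low end had varied functions. Among those described next, METRNL and STUB1 alone reached 20 CPM in the positive pools, and the rest passed the limit only through the negative pool, so their rank depends in part on it. METRNL, a secreted meteorin-like factor, stood at 79.4 CPM in DMSO, 45.9 CPM in RAC1i negatives and 24.4 CPM in positives (0.532, 0.502 to 0.563), and at 59.5 and 31.1 CPM in Combo (0.523, 0.494 to 0.554). MCRIP2 had the lowest ratio in Combo, 0.465 (0.427 to 0.507), and 0.543 in RAC1i. DVL1, a transducer of Wnt signals, had a ratio of 0.553 in both libraries. CBR1, a carbonyl reductase, had 0.543 and 0.555, and MTFP1, a mitochondrial fission protein, 0.543 and 0.572. BCAR1, an adaptor of focal adhesions, had 0.543 and 0.566, NELFB, a subunit of the complex that pauses RNA polymerase, 0.554 and 0.577, and STUB1, a ubiquitin ligase that works with chaperones, 0.571 and 0.538. ZMYND19 (0.537 and 0.516) and CRACR2B (0.559 and 0.544) complete the 10 lowest in RAC1i, and STUB1 was among the 10 lowest in Combo. Of these genes BCAR1 alone stood above its DMSO level in RAC1i negatives, at 24.1 CPM against 13.4 CPM. The Combo ranking added B3GALT6, a galactosyltransferase of the proteoglycan linker, at 22.1 CPM in negatives and 11.3 CPM in positives (0.512, 0.465 to 0.563). In RAC1i it stood at 19.8 and 10.5 CPM and was not tested.

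Inflammatory genes had the highest median ratio of the lists in OVGP1-positive cells. NF-kB is a transcription factor released when its inhibitor is destroyed, and it switches on cytokines together with its own inhibitors. Of 13 listed NF-kB targets and feedback genes 9 were measured in RAC1i, of which 8 were called higher and 1 lower, and in Combo 7 of 8 were higher and 1 lower, where 5.31% and 6.14% of all tested genes were higher. The median log2 ratio was 0.44 in RAC1i and 0.53 in Combo, against -0.04 and -0.03 over all genes, and the summed level was 1648 CPM in RAC1i positives, 1275 CPM in negatives and 339 CPM in DMSO. TNF stood at 1.98 CPM in DMSO, 67.1 CPM in RAC1i negatives and 100.3 CPM in positives (1.49, 1.45 to 1.54), and at 42.1 and 64.0 CPM in Combo (1.52, 1.46 to 1.59). The inhibitors TNFAIP3 (log2 ratio 0.54 and 0.59) and NFKBIA (0.44 and 0.39) and the subunits RELB (0.56 and 0.50), NFKB1 (0.37 and 0.41) and NFKB2 (0.37 and 0.55) were called higher in both libraries. Most of these genes dampen or carry the NF-kB signal itself. TNFAIP2 was the exception, at 129 CPM in RAC1i negatives and 86.9 CPM in positives (0.676, 0.655 to 0.697) and 127 and 86.7 CPM in Combo.

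IL6, a cytokine that signals through STAT3, stood at 2.78 CPM in DMSO, 122 CPM in RAC1i negatives and 183 CPM in positives, a ratio of 1.504 (1.47 to 1.54). In Combo it stood at 67.8 and 106 CPM, a ratio of 1.56 (1.504 to 1.61). An IL6 UMI was found in 84.5% of RAC1i positives and 72.1% of matched negatives, in 73.4% and 61.8% in Combo, and in 4.97% of DMSO cells. The CXCL chemokines, which attract neutrophils, moved less. CXCL1 stood at 44.5 CPM in DMSO, 403 and 495 CPM in RAC1i and 229 and 286 CPM in Combo, just short of the line of 25% in both. CXCL2 (1.28, 1.20 to 1.37), CXCL3 (1.34, 1.27 to 1.42) and CXCL8 (1.31, 1.24 to 1.37) were called in RAC1i, where CXCL2 reached 20 CPM only in the positive pool. In Combo these chemokines stayed under 20 CPM, with ratios of 1.39, 1.33 and 1.17.

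The promoters of IL6 and of the neighbouring chemokine genes CXCL1, CXCL2 and CXCL3 each held 1 match to an NF-kB motif of 10 letters, 3 G and an A, any base, then 3 T and 2 C. They are shown because they held the motif, at nearly the same place. They were picked by that match, and the same stretch before TNF and before CXCL8 held no exact match. The stretch before CXCL8 did hold 10 letters that differ from the motif by 1 letter. Each sequence is the 250 bases upstream of the start site, on the gene's own strand, from the RefSeq promoter table (GRCh38.p14), at chr7:22726950-22727199 for IL6, chr4:73869143-73869392 for CXCL1, chr4:74099196-74099445 for CXCL2 and chr4:74038690-74038939 for CXCL3. IL6 and CXCL1 lie on the plus strand and CXCL2 and CXCL3 on the minus strand. Capitals mark the motif, which begins at base 178 in IL6, 172 in CXCL1, 173 in CXCL2 and 172 in CXCL3, counted from the upstream end.
IL6: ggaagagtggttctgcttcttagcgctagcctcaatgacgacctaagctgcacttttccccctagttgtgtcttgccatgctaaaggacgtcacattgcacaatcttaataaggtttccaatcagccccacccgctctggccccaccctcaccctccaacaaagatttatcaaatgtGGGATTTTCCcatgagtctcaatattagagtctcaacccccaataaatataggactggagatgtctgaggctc
CXCL1: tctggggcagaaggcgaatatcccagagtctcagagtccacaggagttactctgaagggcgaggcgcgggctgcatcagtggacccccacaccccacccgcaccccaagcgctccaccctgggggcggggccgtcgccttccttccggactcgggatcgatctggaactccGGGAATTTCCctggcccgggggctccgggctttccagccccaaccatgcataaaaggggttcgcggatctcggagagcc
CXCL2: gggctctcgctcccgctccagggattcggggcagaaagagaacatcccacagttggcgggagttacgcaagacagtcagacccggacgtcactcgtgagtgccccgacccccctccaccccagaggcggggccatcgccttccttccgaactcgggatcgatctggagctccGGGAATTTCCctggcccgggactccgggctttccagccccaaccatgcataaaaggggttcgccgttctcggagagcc
CXCL3: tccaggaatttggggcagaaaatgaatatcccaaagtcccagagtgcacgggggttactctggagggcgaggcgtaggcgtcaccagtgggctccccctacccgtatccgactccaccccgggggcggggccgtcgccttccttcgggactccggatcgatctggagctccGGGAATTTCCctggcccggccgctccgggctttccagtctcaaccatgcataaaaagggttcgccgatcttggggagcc

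Over both strands of the wider window from 250 bases before to 50 after the start, this motif occurred in 0.579% of all 27305 promoters and in 0.587% of the 4426 promoters matched to genes tested in RAC1i. Among the 231 matched promoters of genes called higher in RAC1i it occurred in 7, or 3.03%, and among 267 in Combo in 6, or 2.25%. Among promoters of genes called lower it occurred in 0.725% in RAC1i and 0.667% in Combo. The AP-1 motif TGACTCA occurred in 0.866% of the promoters of genes called higher in RAC1i and 2.80% of those of tested genes. The E-box CACGTG stood at 11.7% and 11.3%, the CRE TGACGTCA at 4.76% and 3.95% and the GC-box GGGCGG at 65.8% and 72.1%. In Combo the shares of genes called higher and of tested genes were 0.749% and 2.76% for AP-1, 14.2% and 11.2% for the E-box, 5.24% and 3.95% for the CRE and 64.8% and 72.2% for the GC-box. A match describes the letters only, and no binding was measured.

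Immediate early genes, which are induced within minutes of a stimulus, and the ID and HES factors, which hold back differentiation programs, held more higher than lower calls between them. Of 11 measured immediate early genes 5 were called higher and 0 lower in RAC1i, and 4 and 0 in Combo, beside higher calls for 5.31% and 6.14% of all genes, with median log2 ratios of 0.30 and 0.29. ATF3, a stress-induced factor, stood at 5.37 CPM in DMSO, 105 and 153 CPM in RAC1i negatives and positives (1.46, 1.42 to 1.501) and 105 and 160 CPM in Combo (1.52, 1.48 to 1.56). JUNB, an AP-1 subunit, stood at 69.2 CPM in DMSO, 453 and 647 CPM in RAC1i (1.43, 1.41 to 1.44) and 432 and 614 CPM in Combo (1.42, 1.40 to 1.44). FOS was not called, with log2 ratios of 0.13 and 0.05. Of the ID and HES genes 2 of 5 were higher in RAC1i, and 1 of 6 was higher and 1 lower in Combo, counts too small to read against the shares of all genes, which were 6.14% higher and 10.1% lower in Combo. HES1, a Notch target, stood at 29.4 CPM in DMSO, 196 and 270 CPM in RAC1i (1.38, 1.35 to 1.41) and 211 and 292 CPM in Combo (1.39, 1.36 to 1.41). ID3 stood at 358 and 347 CPM in RAC1i and was not called, and HES4 lay on the other side, at 20.04 and 10.7 CPM in Combo (0.532, 0.481 to 0.586). HES4 reached 20 CPM only in the negative pool there, so the limit itself favoured its call.

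The study names one subpopulation for cell differentiation and development (CDD). Its leading genes were chosen on these libraries, so their direction is not independent evidence. All 10 were measured and 6 were called higher in RAC1i and 5 in Combo, with 0 lower and medians of 0.40 and 0.34, against 5.31% and 6.14% of all genes called higher. GADD45B, a stress-response gene (0.49 and 0.44), and EID2, an inhibitor of differentiation (0.45 and 0.42), were called beside HES1, JUNB and NFKBIA, while the metallothionein MT1X was the lowest, at 1679 and 1814 CPM in RAC1i and 2481 and 2742 CPM in Combo. Metallothioneins and zinc transporters had 1 of 5 genes higher in RAC1i and 2 of 6 in Combo, few genes to set against the same background of 5.31% and 6.14%, and summed to 8900 CPM in RAC1i positives, 7705 CPM in negatives and 261 CPM in DMSO. The zinc importer SLC39A10 was called in both libraries, at 46.4 and 59.5 CPM in RAC1i (1.28, 1.23 to 1.34) and 44.1 and 55.4 CPM in Combo (1.26, 1.20 to 1.32). Metallothionein transcripts are near copies of each other, so their split between genes is uncertain.

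Host genes of small nucleolar RNAs (SNHG) and the integrated stress response, in which ATF4 is translated when translation as a whole is held back, also held more higher than lower calls. Of 16 measured genes of the SNHG list, which also holds GAS5 and ZFAS1, 5 were higher and 1 lower in RAC1i and 6 and 1 in Combo, with medians of 0.19 and 0.23. Over all genes 5.31% and 6.14% were higher and 9.52% and 10.1% lower. Over all 20 measured genes with an SNHG symbol the counts were the same and the medians 0.04 and 0.09. SNHG15 stood at 50.6 CPM in DMSO, 849.9 and 1203 CPM in RAC1i (1.42, 1.40 to 1.43) and 664 and 983 CPM in Combo (1.48, 1.46 to 1.497), and SNHG1, SNHG8, SNHG12 and SNHG17 were called with it. SNHG25 went the other way, at 163 and 109.9 CPM in RAC1i (0.672, 0.654 to 0.691). In the integrated stress response 3 of 9 genes were higher in RAC1i and 4 of 10 in Combo, with 0 lower, beside the same shares of all genes. Lists can share members, so their counts are not independent. ATF3 is counted both here and among the immediate early genes, and MT1X in both the CDD and the metallothionein lists. ATF4 had log2 ratios of 0.39 and 0.43 and PPP1R15A, which restores translation, 0.46 and 0.45, while PHGDH, a serine synthesis enzyme, had -0.09 and -0.05.

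**Figure D3:**
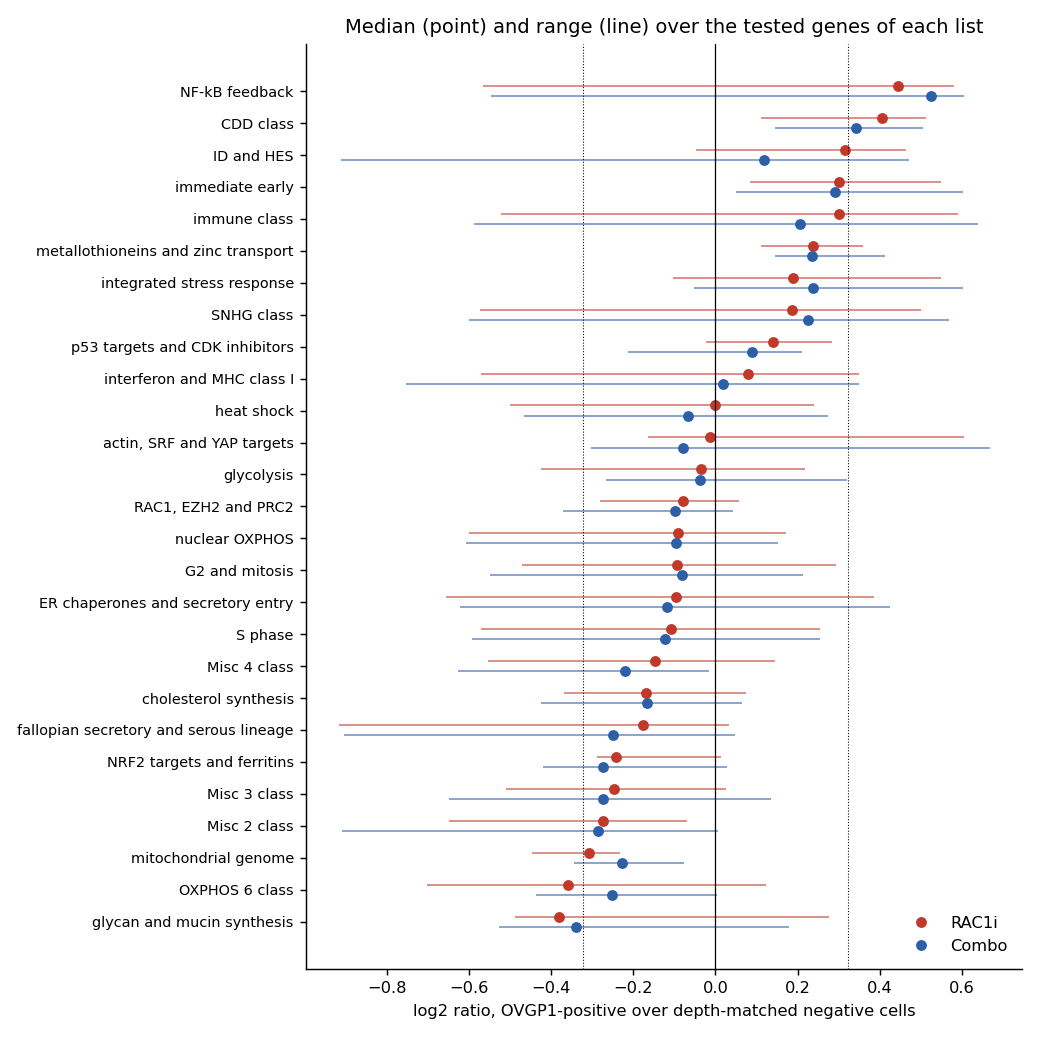
Median (point) and range (line) of the log2 ratio of OVGP1-positive over depth-matched negative cells over the measured genes of each list with 4 or more of them, RAC1i in red and Combo in blue, with dotted lines at 0.32 on either side of 0. The NF-kB feedback genes head the plot at 0.44 and 0.53, and glycan and mucin synthesis stands at its foot at -0.38 and -0.34.

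The genes with the largest ratios were low or near 0 in DMSO. ZNF34, a zinc finger protein, stood at 2.95 CPM in DMSO, 60.6 and 100.3 CPM in RAC1i (1.65, 1.60 to 1.71) and 50.8 and 83.1 CPM in Combo (1.63, 1.57 to 1.70). RASL11A, a small GTPase, stood at 0.372 CPM in DMSO, 20.4 and 33.1 CPM in RAC1i and 17.8 and 29.2 CPM in Combo, where it passed the limit only through the positive pool. The non-coding genes AC100800.1 and AL590226.1 stood at 0.146 and 0.0251 CPM in DMSO, and had ratios of 1.64 and 1.54 in RAC1i and 1.65 and 1.64 in Combo. LINC01569 had the largest ratio in RAC1i, 1.68 (1.57 to 1.80), at 12.97 and 21.8 CPM, and like AL590226.1 it passed the limit only through the positive pool. TENT5B, a poly(A) polymerase, had 1.57 and 1.63, and THOC6, a subunit of the mRNA export complex, led the Combo ranking with 1.72 (1.62 to 1.83) after 1.54 in RAC1i. IVNS1ABP, a cellular partner of the influenza NS1 protein, was the exception in DMSO level, at 64.5 CPM there and 103 and 158 CPM in RAC1i (1.53, 1.49 to 1.57).

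NR1D1, the circadian repressor REV-ERBα, stood at 2.22 CPM in DMSO, 78.5 and 119.8 CPM in RAC1i (1.53, 1.48 to 1.57) and 53.4 and 86.2 CPM in Combo (1.62, 1.55 to 1.68). SLC25A25, a mitochondrial ATP and phosphate carrier, stood at 23.9 and 36.5 CPM in RAC1i (1.53, 1.45 to 1.61) and 22.6 and 36.2 CPM in Combo (1.60, 1.51 to 1.70). ANKRD1, a target of the mechanosensitive factor YAP, stood at 4.06 CPM in DMSO, 147 and 223 CPM in RAC1i (1.52, 1.49 to 1.55) and 103 and 163 CPM in Combo (1.59, 1.54 to 1.63). Of the measured actin, SRF and YAP targets, ANKRD1 included, 4 of 10 were higher in RAC1i and 2 of 10 in Combo, with 0 lower and medians of -0.01 and -0.08, where 5.31% and 6.14% of all genes were higher. Beyond single genes, 23 of 93 measured ZNF genes (24.7%) were higher in RAC1i and 28 of 98 (28.6%) in Combo, against 5.31% and 6.14% of all genes. Among genes annotated as long non-coding, 19 of 108 (17.6%) and 18 of 105 (17.1%) were higher. These families were looked at after their values were seen.

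Transcripts of the mitochondrial genome, which encodes core subunits of the respiratory chain, had ratios below 1 for all 12 measured genes in both libraries. In RAC1i 5 were called lower, with a median log2 ratio of -0.31, and in Combo 2, with a median of -0.23, and 0 were higher. Among all genes 9.52% and 10.1% were lower, so the Combo count of 2 in 12 is near the background. MT-CO3, a subunit of cytochrome c oxidase, stood at 12396 CPM in DMSO, 2502 CPM in RAC1i negatives and 1835 CPM in positives (0.734, 0.729 to 0.739), and at 2193 and 1727 CPM in Combo (0.788, 0.782 to 0.794). Nuclear genes of oxidative phosphorylation moved less: 7 of 72 were lower and 0 higher in each library, with medians of -0.09 and -0.10. NDUFV3, a complex I subunit, had ratios of 0.660 and 0.656, and ATP5PB, an ATP synthase subunit, was the highest at 1.13 and 1.11. The nuclear genes thus held lower calls about as often as all genes did, at 9.52% and 10.1%.

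Of the proliferation and stem cell genes that reached 20 CPM some were called lower and none higher. MKI67, which encodes the proliferation antigen Ki67, stood at 177 CPM in DMSO, 72.0 CPM in RAC1i negatives and 60.05 CPM in positives (0.834, 0.802 to 0.866) and 74.0 and 61.7 CPM in Combo (0.834, 0.799 to 0.871), and was not called. A MKI67 UMI was found in 56.3% of RAC1i positives and 57.2% of matched negatives, and in 58.1% and 59.2% in Combo, so the members included many cells with this transcript. Of 45 measured G2 and mitosis genes 3 were lower in RAC1i and 4 of 46 in Combo, and of the S phase genes 6 of 21 and 4 of 24, with 0 higher in either list. Among all genes 9.52% and 10.1% were called lower. The G2 and mitosis counts were near these shares, and the S phase counts lay above them, over few genes. PCNA, the DNA polymerase clamp, had ratios of 0.674 (0.623 to 0.728) and 0.663 (0.610 to 0.720). It reached 20 CPM only in the negative pools, so the limit itself favoured its calls. SOX2, a stemness factor, stood at 76.8 CPM in DMSO, 15.0 and 17.3 CPM in RAC1i and 12.9 and 16.1 CPM in Combo, under the 20 CPM limit. Its ratios were above 1, at 1.152 and 1.251. CD24, a surface antigen of ovarian cancer stem cells, was called lower, at 259 and 201 CPM in RAC1i (0.779, 0.763 to 0.795) and 230.1 and 174 CPM in Combo (0.756, 0.737 to 0.775). ALDH1A1, the aldehyde dehydrogenase of those cells, stood at 19.7 CPM in DMSO and at 1.67 to 2.36 CPM in the 4 treated pools, and the intervals of its ratios, 0.873 to 1.31 and 0.672 to 1.14, held 1. SIRT7, a nucleolar deacylase, stood at 43.4 CPM in DMSO, 210.1 and 204 CPM in RAC1i and 224 and 228 CPM in Combo, so the members did not stand out in it.

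Genes that would serve the making of a glycosylated secreted protein were not higher as a group. Of 7 measured genes of glycan and mucin synthesis 5 were lower and 0 higher in each library, with medians of -0.38 and -0.34, while 9.52% and 10.1% of all genes were lower. GALNT3, GALNT6 and GALNT7, which start O-linked glycans, were among them, with log2 ratios of -0.49, -0.38 and -0.49 in RAC1i. GALNT7 reached 20 CPM only in the negative pools, so the limit itself favoured its call. C1GALT1, which extends those glycans, was the highest at 1.21 and 1.13. Of 22 measured ER chaperones and secretory entry genes 1 was higher and 2 lower in each library, near the shares of all genes, 5.31% and 6.14% higher and 9.52% and 10.1% lower. The one called higher was DNAJB9, an ER stress chaperone, at 58.3 and 76.2 CPM in RAC1i (1.31, 1.26 to 1.36), and SDF2L1, another ER protein, was the lowest at 0.635 and 0.650. Of the chitinase-like family only CHID1 was measured, with ratios of 0.873 and 0.789. Estrogen receptor targets had medians of -0.02 over 4 genes and 0.11 over 3, with 1 lower in each library, the scaffold SLC9A3R1.

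The remaining lists held few calls. Cholesterol synthesis had 2 of 11 genes lower in RAC1i and 3 of 14 in Combo, and 0 higher, where 9.52% and 10.1% of all genes were lower. The NRF2 targets and ferritins had 0 and 1 lower of 5, although the iron storage proteins FTH1 (-0.24 and -0.27) and FTL (-0.25 and -0.27) both stood below 1. Heat shock genes had 1 and 2 lower of 12, glycolysis 1 and 0 of 12, and neither list had a higher call. Interferon and MHC class I genes were mixed: HLA-B, which presents peptides, was higher at 1.27 in both libraries, while ISG15, a ubiquitin-like protein, was lower at 0.673 and 0.612. The p53 targets and CDK inhibitors had 0 calls among 6, with medians of 0.14 and 0.09. RAC1, EZH2 and the other PRC2 genes, which the drugs were aimed at, had 0 calls of 8 in RAC1i and 1 of 8 lower in Combo, the histone-binding subunit RBBP4. Of the sirtuins SIRT1 alone was called higher, in Combo (1.33, 1.26 to 1.42), where SIRT2 was lower.

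The study's immune subpopulation genes had 4 of 9 higher and 1 lower in RAC1i and 1 of 6 higher and 2 lower in Combo. Those of the first of its OXPHOS subpopulations, the one listed here, had 5 of 10 and 4 of 9 lower, among them the nuclear non-coding RNAs MALAT1 (-0.54 and -0.43) and NEAT1 (-0.40 and -0.44), with 0 higher. In the study's subpopulations Misc 2, Misc 3 and Misc 4, with 8, 10 and 7 measured genes, 2 to 4 were lower and 0 higher in each library, and GPRC5A, an orphan receptor, was the lowest of them at 116 and 74.0 CPM in RAC1i (0.638, 0.617 to 0.660) and 94.4 and 50.3 CPM in Combo (0.532, 0.509 to 0.557). These lists too were chosen by the study on these libraries. Over all genes 5.31% and 6.14% were called higher and 9.52% and 10.1% lower, in RAC1i and Combo.

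Around OVGP1 itself, the genes within 250 kb did not move as a block. Of 17 annotated neighbours 5 had at least 5 CPM in the treated pools. C1orf162, which lies 46057 bases away on the other strand, stood at 0.126 CPM in DMSO, 10.8 and 18.6 CPM in RAC1i and 8.66 and 15.1 CPM in Combo. Its ratios of 1.72 (1.60 to 1.86) and 1.74 (1.59 to 1.91) were above those of every gene over the 20 CPM limit, which it did not reach. Large ratios are more common under that limit: with no minimum CPM 21.2% of genes were higher in RAC1i and 19.9% in Combo. Its rank among genes of like level was not taken. WDR77, the nearest coding gene at 12155 bases, had 0.855 (0.792 to 0.921) and 0.846 (0.777 to 0.920). ATP5PB had 1.13 and 1.11, RAP1A, a small GTPase, 0.984 and 1.07, and CEPT1, a phospholipid synthesis enzyme, 1.05 and 1.09. The chitinase genes CHIA and CHI3L2 of the same cluster were at or under 0.0169 CPM in all pools.

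Genes called lower were richer in GC. Their median transcript GC content was 52.3% in RAC1i and 51.7% in Combo, against 46.2% for all tested genes and 45.7% and 46.5% for those called higher. Their median transcript length was 2481 bases in RAC1i against 3016 for tested genes. The part of base composition in the calls was not tested.

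For genes that responded strongly to treatment, the direction of the ratio mostly followed the response. Genes were classed by their change in the other treated library against DMSO, so that the class did not use the cells contrasted. Of 169 genes tested in RAC1i that stood 4-fold or more above DMSO in Combo, 161 (95.3%) had a ratio above 1 and 101 (59.8%) were called higher, with a median log2 ratio of 0.36. Of 39 genes 4-fold or more below DMSO 2 (5.13%) had a ratio above 1 and 25 (64.1%) were called lower, with a median of -0.36. Many genes this far below DMSO lie near the 20 CPM limit in treated cells. Some, such as CDH6, reached it only in the negative pool, and others, such as SOX2, were left out. The limit itself thus favoured ratios below 1 in this class. Among 4152 genes within 2-fold of DMSO 88 (2.12%) were higher and 350 (8.43%) lower. Most of the 517 lower calls in RAC1i were thus genes within 2-fold of DMSO, and in Combo 293 of the 550 lower calls were. In Combo, with classes from RAC1i, 122 of 186 genes (65.6%) in the top class were higher and 34 of 54 (63.0%) in the bottom class lower. Both classifications used the same DMSO library.

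Each treated cell was then given a response share, the percent of its UMIs on such genes that fell on those 4-fold or more above DMSO rather than below it, with the genes chosen by the other treated library and at 50 CPM or more in either that library or DMSO. For RAC1i cells the score used 99 genes above and 97 below, with a median of 1178 UMIs per cell, and for Combo cells 123 and 116 genes. OVGP1 was not among them. The genes below DMSO included MT-CO3 and MT-ATP6 in both scores and MT-ND4 in the RAC1i score, at 12396, 8372 and 6832 CPM in DMSO, and these mitochondrial transcripts gave 74.8% of the UMIs on the low side in RAC1i cells and 59.2% in Combo cells. PAX8, IL6, TNF and SOX2 were score genes as well. The median share was 87.6% in RAC1i and 11.3% in DMSO on the same genes, and 89.3% and 13.2% for the Combo score. OVGP1-positive RAC1i cells averaged 88.3% and their depth-matched negatives 82.1%, and in Combo the averages were 89.6% and 84.4%.

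The OVGP1-positive share climbed along this score, with all its genes counted, in both libraries. Cells of each library were ranked into deciles of the score. In the first RAC1i decile, of lowest response share, 49 of 1022 cells were positive, 4.79% (3.57% to 6.29%), with an OVGP1 level of 2.48 CPM. In the ninth and the last decile 32.0% (29.1% to 34.9%) and 30.5% (27.6% to 33.4%) were positive, with 16.2 and 16.03 CPM. In Combo the first decile held 5.10% (3.70% to 6.83%) at 2.49 CPM and the last 25.8% (22.8% to 28.9%) at 12.3 CPM. Of all positive cells 2.46% in RAC1i and 3.08% in Combo lay in the first decile, and 70.3% and 70.7% in the upper 5 deciles. Depth moved with the score, with a median of 19029 UMIs in the first RAC1i decile and 23567 in the last. Among cells of 20000 to 30000 UMIs alone the shares were 2.47% (0.911% to 5.30%) and 33.2% (27.8% to 39.0%) in RAC1i, and 0.794% (0.0201% to 4.34%) and 24.4% (18.9% to 30.6%) in Combo. The OVGP1 level in the first and last decile of these cells was 0.978 and 17.7 CPM in RAC1i and 0.312 and 10.8 CPM in Combo. When mitochondrial genes and the genes named by rule were left out, which kept 86 genes above and 86 below in RAC1i and 108 and 106 in Combo, 4.79% and 20.1% (17.7% to 22.7%) of the cells of the first and last decile were positive in RAC1i, and 3.40% and 17.5% (15.0% to 20.3%) in Combo, below the last deciles of the full score. These last deciles lay near the shares of all kept cells, 19.5% in RAC1i and 16.6% in Combo. With the reduced score the first decile was thus low, but the last did not stand out. The part of free RNA in the OVGP1 UMIs was not tested.

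Other genes changed level along the same deciles. C1orf162 went from 2.78 to 20.2 CPM in RAC1i and from 2.20 to 18.7 CPM in Combo. IL6 went from 24.1 to 221 CPM and from 14.7 to 142 CPM, and PAX8 from 194 to 17.6 CPM and from 166 to 12.2 CPM, both genes being part of the score. MKI67, which was not part of it, went from 119 to 40.6 CPM in RAC1i and from 113 to 47.3 CPM in Combo. SOX2, which the score counts among the genes below DMSO, stood at 21.7 CPM in the first and 18.5 CPM in the last RAC1i decile and at 16.4 and 20.1 CPM in Combo.

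**Figure D4:**
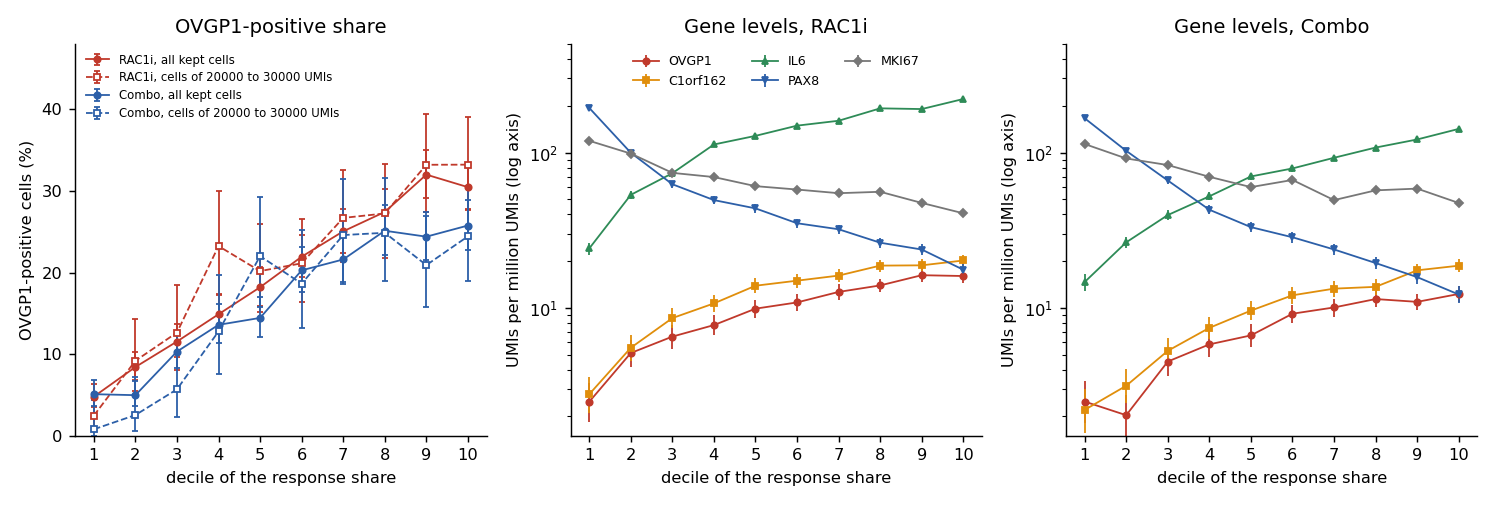
OVGP1-positive share by decile of the response share (left, percent of cells with exact intervals; filled points all kept cells, open points cells of 20000 to 30000 UMIs) and levels of 5 genes by decile in RAC1i (middle) and Combo (right), in UMIs per 1e6 UMIs on a log axis with Poisson intervals. OVGP1 climbs from 2.48 to 16.03 CPM in RAC1i and C1orf162 from 2.78 to 20.2 CPM, while PAX8 goes from 194 to 17.6 CPM in RAC1i.

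Cells with more OVGP1 stood further from the negatives. Against negatives matched to each set of cells by UMI bin, the genes called higher in RAC1i had a median log2 ratio of 0.36 in 1575 cells with 1 OVGP1 UMI and 0.51 in 395 cells with 2 or more, and those called lower -0.38 and -0.58. In Combo the medians were 0.36 and 0.58 for higher genes and -0.37 and -0.65 for lower genes, over 1126 and 200 cells. PAX8 had ratios of 0.554 (0.525 to 0.584) and 0.462 (0.418 to 0.510) in RAC1i and 0.567 (0.532 to 0.605) and 0.362 (0.306 to 0.426) in Combo. IL6 had 1.40 (1.36 to 1.43) and 1.87 (1.80 to 1.94) in RAC1i and 1.46 (1.41 to 1.52) and 1.90 (1.77 to 2.03) in Combo. The genes were called on these same cells, so their medians are a description.

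Matching on the decile of the response share as well as on depth removed most of the difference. It kept 1740 RAC1i and 998 Combo positives, and the standard deviation of the log2 ratio over tested genes went from 0.22 to 0.10 in RAC1i and from 0.24 to 0.09 in Combo. Of 5157 genes tested in RAC1i 4 were then higher (0.0776%) and 12 lower (0.233%), and of 5142 in Combo 5 higher (0.0972%) and 4 lower (0.0778%). Of these, 15 in RAC1i and 5 in Combo had the same call before. The directions mostly stayed: 285 of the 288 higher genes kept a ratio above 1 and 502 of the 517 lower genes one below 1 in RAC1i, with medians of 0.18 and -0.16. In Combo the counts were 331 of 335 and 479 of 550, with medians of 0.15 and -0.10.

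Because PAX8, IL6, TNF, SOX2 and MT-CO3 are counted in the score, matching on it fixes part of their shift. The same holds for ZNF34, NR1D1, ANKRD1, ATF3, JUNB, SNHG15, CXCL1, HES1, NFKBIA, GADD45B, EID2, CBR1 and SDF2L1, among others. PAX8, IL6, TNF, SOX2 and MT-CO3 were each also read with mitochondrial and named genes left out of the score. PAX8 moved from 0.530 to 0.825 (0.773 to 0.880) in RAC1i and from 0.534 to 0.993 (0.906 to 1.09) in Combo, where the interval held 1. With the reduced score it stood at 0.904 (0.847 to 0.964) and 1.099 (0.997 to 1.21). IL6 moved to 1.147 (1.12 to 1.18) and 1.12 (1.07 to 1.16), and to 1.18 (1.14 to 1.21) and 1.13 (1.08 to 1.18) with the reduced score. TNF moved to 1.104 (1.07 to 1.14) and 1.002 (0.951 to 1.06), and to 1.14 (1.1003 to 1.18) and 1.03 (0.975 to 1.08). MT-CO3 crossed to the other side of 1 with the full score, at 1.07 (1.06 to 1.08) and 1.05 (1.04 to 1.06), but not with the reduced one, at 0.917 (0.910 to 0.924) and 0.927 (0.917 to 0.937). MKI67, counted in neither, stood at 1.07 (1.02 to 1.12) and 0.991 (0.935 to 1.05). C1orf162, also counted in neither, moved from 1.72 to 1.30 (1.19 to 1.41) and from 1.74 to 1.27 (1.14 to 1.42), and stood at 1.37 and 1.29 with the reduced score. SOX2 went from 1.152 to 1.19 (1.09 to 1.29) in RAC1i and from 1.251 to 1.21 (1.09 to 1.34) in Combo, and to 1.27 and 1.22 with the reduced score. The higher calls under this matching were SEMA4A, SLC25A25, LINC01569 and IFI27 in RAC1i, and SASS6, VARS, PDSS1, ANKRD13A and THOC6 in Combo. SEMA4A, LINC01569, IFI27, PDSS1 and ANKRD13A reached 20 CPM only in the positive pool, so the limit itself favoured their calls. Of the higher calls IFI27, SASS6 and ANKRD13A had not been called on depth alone. The lower calls in both libraries were SLC30A5, a zinc transporter of the secretory pathway (0.790 and 0.789), and the non-coding AC103591.3 (0.782 and 0.690). Both reached 20 CPM only in the negative pools, so the limit itself favoured these calls. The higher call of SLC39A10 in Combo and those of CXCL2 and CXCL8 in RAC1i crossed to below 1. The lower calls of CD24, NDUFV3 and the score gene SDF2L1 in Combo crossed to just above it. The score genes MT1X (0.916 and 0.889) and CXCL1 (0.978 and 0.967), not called on depth alone, also crossed to below 1. MT1B, above 1 on depth alone, was called lower in Combo, at 0.795. With the reduced score CDH6, a score gene, crossed to above 1 in both libraries, at log2 ratios of 0.27 and 0.18. The genes called under this matching were singled out after their values were seen.

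**Figure D5:**
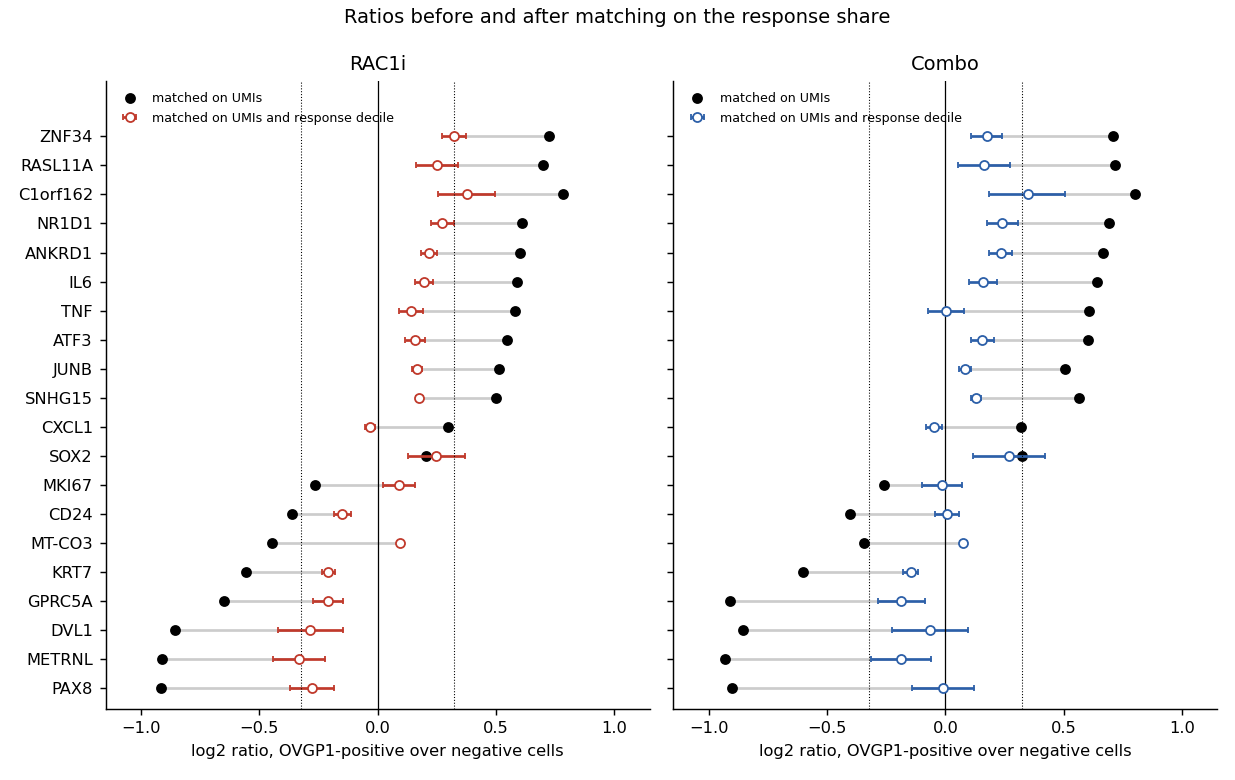
Log2 ratio of OVGP1-positive over negative cells for 20 named genes, matched on UMIs alone (black) and on UMIs and the decile of the response share (open, with 95% counting intervals), in RAC1i (left) and Combo (right), with dotted lines at 0.32 on either side of 0. PAX8 goes from -0.92 to -0.28 in RAC1i, while SOX2 stays near its first value and MT-CO3 changes side. Of the genes drawn, PAX8, SOX2, MT-CO3, ZNF34, NR1D1, ANKRD1, IL6, TNF, ATF3, JUNB, SNHG15 and CXCL1 are counted in the score, so matching fixes part of their shift.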

How the data were processed

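The deposited files held raw UMI counts per gene and barcode, which the authors made with Cell Ranger 4.0.0 on its GRCh38 reference from Chromium 3′ v3.1 libraries of OVCAR3 cells, 1 library per condition. The files listed 36601 genes, of which 36366 were placed by identifier on GENCODE 44. Totals of kept cells were 199063947 UMIs in DMSO, 234969742 in RAC1i and 212792113 in Combo. A library of EZH2 inhibitor alone was not analysed here. No doublet caller was run, and the study's methods used here name none.

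Within each library, counts were summed over OVGP1-positive cells and set against the counts expected from OVGP1-negative cells of the same 5000-UMI bin, weighted to the UMIs of the positive cells. Bins needed 10 cells of each kind. With 1 library per condition no test was possible, so calls rest on a fixed fold. Ratio intervals are conditional binomial intervals that treat UMIs as independent. Levels carry exact Poisson intervals and shares exact Clopper-Pearson intervals. Scripts used Python 3.11.15, numpy 2.4.6, scipy 1.17.1, pandas 2.3.3 and matplotlib 3.10.9, and were tested on simulated data. Pools were also scaled by TMM (edgeR 4.0.16) and size factors (DESeq2 1.42.0), with no test from either.

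Named genes were the 10 largest and 10 smallest ratios per library, genes within 250 kb of OVGP1 at 5 CPM or more, the extreme members of each of 33 gene lists in RAC1i, and genes the study names. Other genes were named as examples of a list after their values were seen. The members, the gene lists and the rule were chosen with earlier results of these data known.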

Additional observations from a re-analysis of the deposited data

Results flagged for a closer look

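OVGP1 UMIs also appeared in barcodes that the limits on cells left out and that no comparison used. Their level was 12.9 CPM (11.3 to 14.5) over 1557 RAC1i barcodes, of which 171 were positive, and 10.7 CPM (9.52 to 11.99) over 1518 Combo barcodes, of which 191 were positive. The 2540 barcodes left out in DMSO held 0.966 CPM (0.417 to 1.90). The level in the left-out RAC1i and Combo barcodes was thus above that in the kept cells of the same libraries, at 10.6 and 7.74 CPM.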

How the results depend on the processing

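The counts of genes called in OVGP1-positive cells stayed within 1.5 times their reported values with bins of 2500 UMIs, with 1 negative cell drawn per positive cell, with TMM scaling or DESeq2 size factors, with mitochondrial genes left out of the totals, with means over cells, with a mitochondrial limit of 10% and with cells of 10000 to 40000 UMIs only. TMM scaling reached that limit, with 345 genes shared as higher and 260 as lower, against 230 and 390. Without matching on UMIs, 161 genes were higher in RAC1i and 127 were shared as higher. Cells with 2 or more OVGP1 UMIs gave 561 higher and 1001 lower in RAC1i, 747 and 1136 in Combo, and 466 and 790 shared. These pools held 395 and 200 cells, so counting error is larger in them. With no minimum CPM the counts were 6244 and 9649 in RAC1i, 5794 and 10670 in Combo and 2569 and 5387 shared, since genes of few UMIs were then counted. With at least 50 CPM they were 160 and 187, 169 and 212, and 126 and 146. At 1.1-fold they were 1097 and 1737, 1198 and 1691, and 950 and 1421, and at 1.5-fold 15 and 66, 33 and 95, and 13 and 47.

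Matching on a further property was chosen after seeing the data. With the decile of the response share, the counts were 4 higher and 12 lower in RAC1i, 5 and 4 in Combo, and 0 and 2 shared. With mitochondrial and named genes left out of the score, they were 13 and 12, 9 and 4, and 1 and 2. With 4 classes of the mitochondrial share they were 131 and 215, 172 and 287, and 100 and 153. The response share was built from genes that differ between treated and DMSO cells, so matching on it fixes part of the shift of those genes. It counted 99 genes above and 97 below DMSO for RAC1i cells and 123 and 116 for Combo cells, of 5157 and 5142 genes tested. The cause of the lost calls was not tested. Under matching on the full score, the median log2 ratio turned to 0.063 for the study's OXPHOS genes in RAC1i and 0.0795 for glycan and mucin synthesis in Combo. Single genes turned to -0.11 for SLC39A10 in Combo, -0.11 for CXCL8 and -0.028 for CXCL2 in RAC1i, 0.0068 for CD24, 0.0086 for NDUFV3 and 0.0244 for SDF2L1 in Combo, and 0.0965 and 0.0748 for MT-CO3 in RAC1i and Combo. With the reduced score, glycan and mucin synthesis turned to 0.00051 in RAC1i and 0.0293 in Combo. Single genes turned to 0.0076 for HES4, 0.27 for CDH6 and 0.0729 for TM7SF2 in RAC1i, and to 0.14 for PAX8, -0.053 for SLC39A10, -0.0195 for CXCL3, 0.18 for CDH6, 0.0614 for CD24 and 0.0129 for SDF2L1 in Combo. Of these, HES4 in RAC1i and CXCL3 and CDH6 in Combo were under 20 CPM and had not been called. No other named gene or list median with a log2 ratio of 0.32 or more in size changed side under any alternative. Medians nearer 0 did so more often. Over all sizes, 5 of 62 list medians changed side with TMM scaling, 1 with DESeq2 size factors, 3 with means over cells, 7 with no minimum CPM, 15 with the full score and 19 of 61 with the reduced one.

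Shares of OVGP1-positive cells followed depth and the UMIs asked for. In DMSO 0 cells held 2 or more UMIs, and the share was 0.0297% in cells thinned to 5000 UMIs and 0.0136% at 2500. In RAC1i the same shares were 3.95%, 5.07% and 2.76%, and in Combo 2.78%, 4.11% and 2.20%. No paired analysis was possible because each condition had 1 library and no values came from a test.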

Other observations

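Counts of calls were also taken by chromosome, and the chromosomes named here were chosen as extremes after their values were seen. Over all genes 5.31% were higher and 9.52% lower in RAC1i, and 6.14% and 10.1% in Combo. Chromosome 6 held 32 higher calls among 241 tested genes (13.3%) in RAC1i and 29 among 243 (11.9%) in Combo. The part of any gene family in these counts was not tested. Of 10 tested histone genes 3 were higher in each library. Chromosome 21 held 14 lower calls among 68 genes (20.6%) in RAC1i and 12 among 69 (17.4%) in Combo, and chromosome 16 held 34 among 210 (16.2%) and 35 among 218 (16.1%). Chromosome 11 held 43 lower calls among 325 genes (13.2%) in RAC1i and 54 among 329 (16.4%) in Combo.

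Ribosomal protein genes were read against the same shares of all genes. Of 82 cytosolic ribosomal protein genes 0 were higher and 1 lower in RAC1i, and 1 was higher and 1 lower in Combo, with median log2 ratios of 0.08 in both. Of the mitochondrial ribosomal protein genes 11 of 75 (14.7%) were lower in RAC1i and 11 of 76 (14.5%) in Combo, with 0 higher in either and medians of -0.08 and -0.06. These groups were looked at after their values were seen and were not tested.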
